A study of Homo sapiens with 6 samples.

Results

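MYC binding near the genes for its own network partners was examined in ONS76 cells, a human line established from a medulloblastoma, a tumour of the cerebellum. The members were 9 genes with 10 transcription start sites in hg19, namely MAX, MXD1, MXI1 (2 starts), MXD3, MXD4, MNT, MGA, MLX and MLXIP. Every peak whose summit lay within 5 kb of a start was taken, which gave 38 of the 59006 peaks in all lists. Replicate 1 had 12 of its 24899 peaks there, replicate 2 had 13 of 16809 and replicate 3 had 13 of 17298. These 38 peaks merged into 13 of 27801 places, where a place is a stretch of overlapping peaks from any replicate. The rule used the position of gene starts and not the strength of peaks.

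The series held 6 chromatin immunoprecipitation (ChIP-seq) libraries of ONS76 cells that carried an inducible SOX2 construct and were kept in DMEM with serum. In 3 libraries the antibody was MYC (Y69), and in 3 it was normal IgG, a non-specific control. The study did not perform ChIP-seq with SOX2 elevated. A peak list of each MYC library was analysed, and the IgG libraries had no list of their own here. Several immunoprecipitations of a single chromatin batch were pooled in the study, and nothing states that replicates came from separate cultures. The SD given here is therefore the spread between libraries and may be technical. The sources do not say whether the line is a single clone.

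MYC is a basic helix-loop-helix leucine zipper protein that binds DNA as a dimer with MAX, most strongly at the E-box CACGTG. The MXD proteins, MNT and MGA also pair with MAX, bind the same sequence and mostly repress transcription, so they compete with MYC for both partner and site. MLX is a MAX-like protein that pairs with MLXIP (also called MondoA), a sensor of glucose metabolites, and with some of the MXD proteins.

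The promoter sequences are shown first because MYC and all of these partners read the same short word. RefSeq windows of 300 bases, from 250 before to 50 after a start, were matched by gene symbol for 9 of 9 genes (14 windows in all). CACGTG, which is its own reverse complement, was present in the windows of 3 of the 9 genes, MXD4, MNT and MLX. Of all 35116 windows, 7.26% held it, and of all 27305 genes, 8.77% did. The next lines give the 250 bases before the start for these 3 genes and for MXD1, whose peak was the strongest, with CACGTG in capitals. The sequences run 5′ to 3′ on the gene's strand and come from RefSeq, build GRCh38.p14. The positions are chr4:2262110-2262359 (minus strand), chr17:2401061-2401310 (minus), chr17:42566850-42567099 (plus) and chr2:69914859-69915108 (plus).
MXD4: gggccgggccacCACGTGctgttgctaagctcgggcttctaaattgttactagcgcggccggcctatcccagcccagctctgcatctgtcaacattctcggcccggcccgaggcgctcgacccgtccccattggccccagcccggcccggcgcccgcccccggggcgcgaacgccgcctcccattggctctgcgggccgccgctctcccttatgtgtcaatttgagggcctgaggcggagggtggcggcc
MNT: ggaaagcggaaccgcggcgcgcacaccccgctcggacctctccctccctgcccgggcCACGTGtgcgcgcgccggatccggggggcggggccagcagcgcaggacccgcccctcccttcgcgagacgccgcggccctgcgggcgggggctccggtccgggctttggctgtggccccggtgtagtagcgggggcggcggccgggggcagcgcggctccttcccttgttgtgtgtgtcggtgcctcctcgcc
MLX: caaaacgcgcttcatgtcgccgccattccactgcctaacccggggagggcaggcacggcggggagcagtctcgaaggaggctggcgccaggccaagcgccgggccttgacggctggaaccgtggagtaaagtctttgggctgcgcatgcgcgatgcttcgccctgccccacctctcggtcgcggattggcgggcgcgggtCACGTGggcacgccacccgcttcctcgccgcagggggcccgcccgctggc
MXD1: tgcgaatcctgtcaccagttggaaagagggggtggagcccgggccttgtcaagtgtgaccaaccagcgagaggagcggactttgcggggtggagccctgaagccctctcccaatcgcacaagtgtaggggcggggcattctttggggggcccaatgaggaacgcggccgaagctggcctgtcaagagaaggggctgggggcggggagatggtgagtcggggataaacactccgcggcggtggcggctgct

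The E-box began 238 bases before the start in MXD4, 193 before it in MNT and 50 before it in MLX. The window of MXD1 had no CACGTG. The words CACGTG or CACGCG, on either strand, were in windows of 6 of the 9 genes, with MXI1, MGA and MXD3 added, against 20.3% of all genes. Any CANNTG was in windows of 7 of the 9, against 73.1% of all genes. MAX and MLXIP had no CANNTG in any of their windows. The RefSeq starts were not matched to the hg19 starts, so the MAX windows may not hold the promoter of the start used for its peaks. These are letters in a window of another genome build, not measured binding sites.

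All 10 starts had a MYC peak within 5 kb in all 3 replicates, and so did all 9 genes. As background, 45.0% of all 27801 places had peaks from all 3 replicates, and 3.78% of 303075 consecutive windows of 10 kb on chromosomes 1 to 22 and X held a summit in all 3. Neither share is that of gene starts in general, which was not computed because no hg19 annotation was used here. The count of 10 did not change with q-value thresholds of 0.01 or 0.001. With a window of 1 kb it was 8, since the upstream MXI1 start and MNT no longer had a summit in every replicate.

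The lists differed in depth. An even spread of fragments over the genome, which the peak caller took as its lowest background, gave 7.79 fragments at a site in replicate 1, against 5.84 and 4.76 in replicates 2 and 3. Each start is described by its strongest peak. Fold enrichment is the ratio of fragments at the summit to the local background, with 1 added to both, as deposited.

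**Figure D1:**
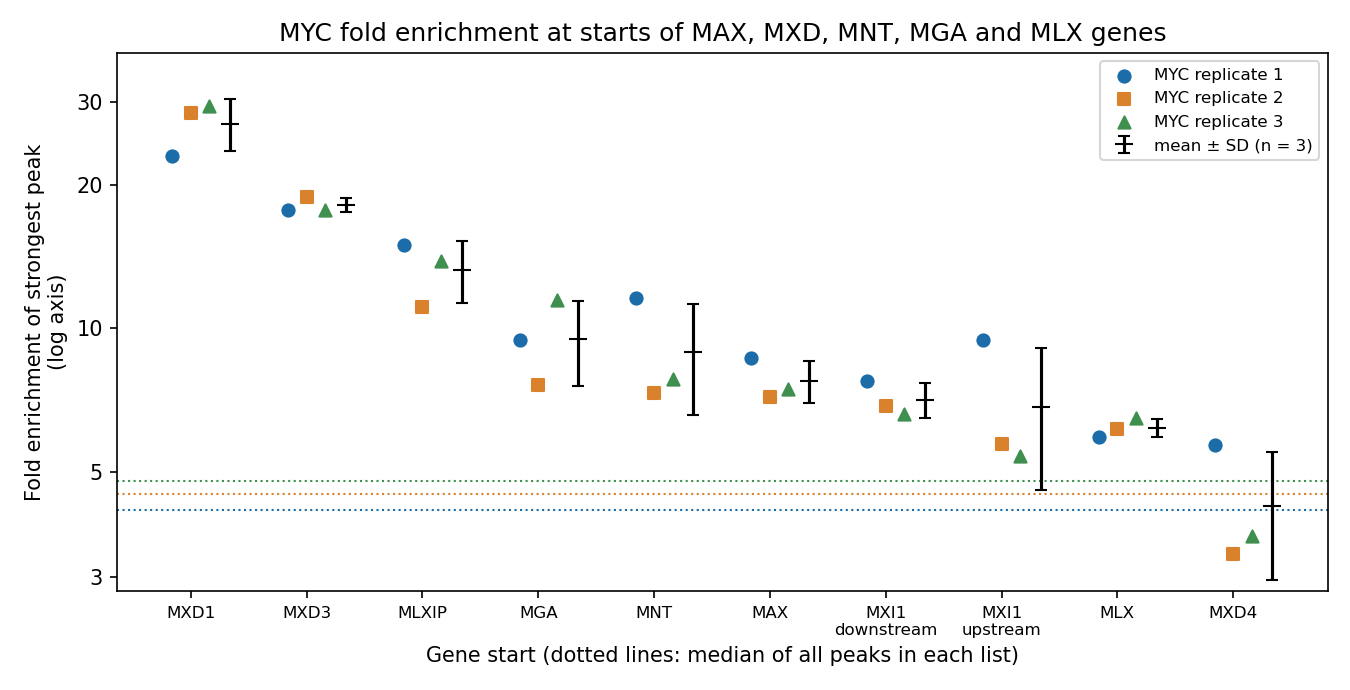
Fold enrichment of the strongest MYC peak within 5 kb of each start on a log axis, for MYC replicates 1, 2 and 3 (points), with the mean ± SD over 3 replicates (bars) and the median of all peaks in each list (dotted lines). MXD1 and MXD3 lie above the other starts in every replicate, and MXD4 is the lowest in every replicate, below the list median in replicates 2 and 3.

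Fold enrichment over the 10 starts had a median of 9.45, 7.24 and 7.64 in replicates 1, 2 and 3. The median of all peaks was 4.15, 4.49 and 4.78 in the same lists. The list median takes in every peak, whereas a start has only its strongest, which favours the starts. Averaged over replicates, the median start was above 85.6% of the peaks by its strongest peak and above 82.9% by its nearest. Peaks near other gene starts were not set apart for comparison. In replicate 1 all 10 starts were above the list median, and in replicates 2 and 3 it was 9, the exception being MXD4. The highest mean was 6.37 times the lowest. The MXD family spanned this whole range, since its 5 starts held both the strongest and the weakest peak of the group.

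MXD1, a repressor induced in differentiating cells, had the strongest MYC peak. Its fold enrichment in replicates 1, 2 and 3 was 23.1, 28.4 and 29.4 (27.0 ± 3.41, SD, n = 3), on 340, 216 and 191 fragments. These values exceeded those of 99.5%, 99.8% and 99.8% of the peaks in their lists, and the place ranked 48 of the 12499 found in all 3 replicates. It was the only start whose replicates differed by more than their counting intervals. Its fragments over background, with nothing added, were 24.7 (95% exact Poisson interval 22.1 to 27.5) in replicate 1 against 32.5 (28.3 to 37.2) and 34.6 (29.8 to 39.8). The local background there was 1.77 times the genome-wide level in replicate 1 and 1.14 and 1.16 times in replicates 2 and 3. Over the genome-wide level instead, MXD1 stood at 43.7, 37.0 and 40.2, so replicate 1 was then the highest. The merged place ran from 70140918 to 70142390 on chromosome 2 (hg19), and the summits lay 781, 775 and 788 bp before the start at 70142220, farther out than the 250 bases printed for this gene.

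MXD3, a family member linked to proliferating cells, came next. Its fold enrichment was 17.8, 18.9 and 17.8 (18.2 ± 0.632, SD, n = 3), on 201, 129 and 116 fragments. The summits were 4, 26 and 4 bp from the start on chromosome 5 at 176739292, and each peak covered the start. On average no other start had its summit so close. The 3 values of MXD3 lay below all of those of MXD1 and above all of those of the starts that followed, and they differed by the least relative to their mean (coefficient of variation 3.48%).

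MXI1, which encodes the repressor also called MXD2, had 2 starts on chromosome 10 that lie 18399 bp apart, and each had a peak within 5 kb. At the downstream start, at 111985762, fold enrichment was 7.74, 6.87 and 6.60 (7.07 ± 0.595, SD, n = 3), with summits 308, 310 and 278 bp after the start. In the window of the upstream start, at 111967363, it was 9.45, 5.70 and 5.38 (6.84 ± 2.26, SD, n = 3). Its summits lay 3629, 3681 and 3605 bp after that start, and no peak covered it. RefSeq (GRCh38) lists a further MXI1 start 2626 bp after its outermost upstream one. By these distances, which come from different builds, the peak lies nearer to that further start than to the upstream one, and which start it belongs to was not tested. The values of the 2 MXI1 starts overlapped, with the downstream start higher in 2 of 3 replicates. Replicate 3 alone had another peak 1698 bp after the upstream start, with a fold enrichment of 3.47 on 19 fragments.

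MXD4, also a MAX-binding repressor, had the weakest peak, in a gene whose promoter window holds CACGTG. Fold enrichment was 5.69, 3.36 and 3.65 (4.23 ± 1.27, SD, n = 3), on 49, 22 and 20 fragments. This was above 72.2%, 17.6% and 20.1% of the peaks in the lists, so MXD4 was in the upper part of the list in replicate 1 only. Fragments over background had 95% Poisson intervals of 4.66 to 8.32, 2.36 to 5.70 and 2.57 to 6.49, which share a range. The peak was past the threshold in each list, with a −log10 q-value of 20.1, 4.38 and 4.61. The summits were 469, 426 and 454 bp before the start at 2263739 on chromosome 4, and no peak covered the start. Replicate 1 alone had a smaller peak 677 bp after it (fold enrichment 2.73, 23 fragments).

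**Figure D2:**
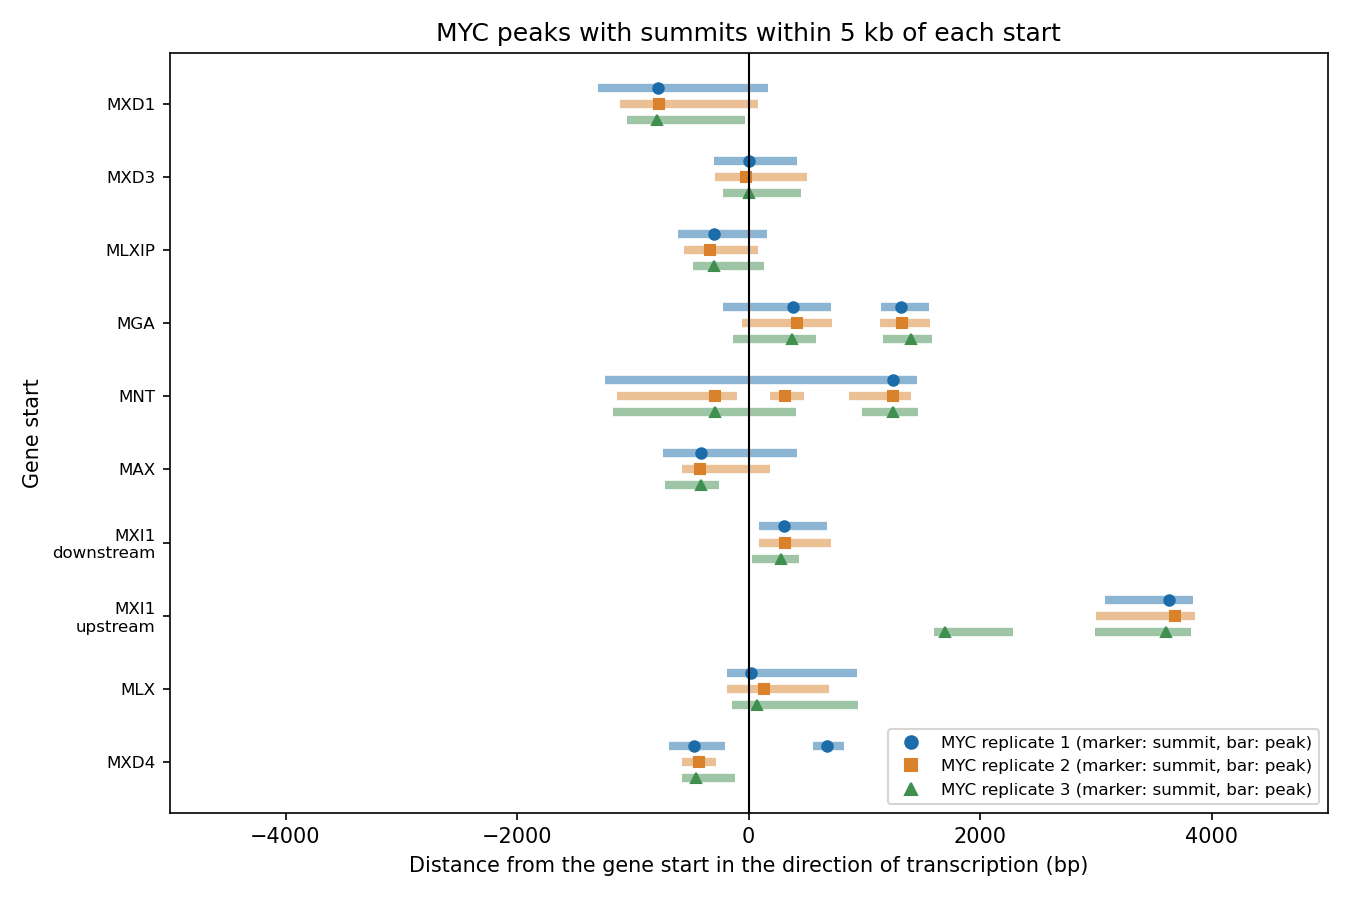
MYC peaks with a summit within 5 kb of each start, drawn by distance from the start in the direction of transcription (bp), with bars for the called peak and markers for its summit in MYC replicates 1, 2 and 3. The summits of MXD3 sit on the start, those of MXD1 about 781 bp before it and the strongest of the upstream MXI1 start 3605 to 3681 bp after it, with another at 1698 bp in replicate 3, and MNT has summits on both sides of its start in replicates 2 and 3.

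MAX encodes the partner that MYC itself needs. Its fold enrichment was 8.65, 7.16 and 7.47 (7.76 ± 0.785, SD, n = 3), on 75, 48 and 42 fragments, above 88.9%, 82.3% and 81.3% of the peaks. The summits lay 413, 418 and 408 bp before the start at 65569227 on chromosome 14, within 10 bp of each other. Among the 10 starts MAX was the sixth by mean.

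MNT and MGA, the larger MAX partners, stood side by side. MGA, which also has a T-box DNA-binding domain, had a fold enrichment of 9.45, 7.60 and 11.5 (9.50 ± 1.93, SD, n = 3), with summits 382, 421 and 377 bp after its start at 41952610 on chromosome 15. RefSeq (GRCh38) lists 3 MGA starts, and the bases before 2 of them end at 41660404 and 41660746. Which of these starts the peak belongs to was not tested. A second, weaker MGA place was found in all 3 replicates 1315, 1323 and 1400 bp after the start, with a fold enrichment of 3.80, 4.41 and 4.52. RefSeq places the start of LOC105370791, on the opposite strand, within 5 kb of an MGA start. MNT, the most widely expressed of the MAX-binding repressors, had a fold enrichment of 11.6, 7.31 and 7.82 (8.91 ± 2.35, SD, n = 3). MGA was higher than MNT in 2 of 3 replicates, and their values overlapped.

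MNT had the broadest place of the group, 2703 bp from 2302800 to 2305502 on chromosome 17 around the start at 2304258. Its strongest summit lay 1251, 1246 and 1250 bp after the start in replicates 1, 2 and 3. In replicate 1 a single peak of 2696 bp, wider than 99.9% of the list, covered the whole place. Replicate 2 split it into 3 peaks and replicate 3 into 2. Both had a summit before the start, at 288 bp with a fold enrichment of 5.70 in replicate 2 and at 289 bp with 7.30 in replicate 3. The E-box of the MNT promoter begins 193 bases before the RefSeq start. By these distances, which come from different builds, the summit before the start is the nearest to it in replicates 2 and 3.

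The genes of the MLX arm differed from each other. MLXIP had a fold enrichment of 15.0, 11.1 and 13.9 (13.3 ± 2.01, SD, n = 3), on 131, 75 and 79 fragments, above 97.6%, 94.5% and 96.5% of the peaks. Its summits lay 301, 336 and 302 bp before the start at 122516634 on chromosome 12. MLX had 5.92, 6.14 and 6.47 (6.18 ± 0.278, SD, n = 3), on 81, 53 and 49 fragments, with summits 22, 136 and 73 bp after the start at 40719078 on chromosome 17. The values of MLXIP were above those of MLX in each replicate and did not overlap with them. The MLX peak sat on a raised local background of 1.65, 1.33 and 1.41 times the genome-wide level. At all peaks of chromosome 17 the median was 1.42, 1.27 and 1.29. Over the genome-wide level MLX had 10.4, 9.07 and 10.3, a mean of 9.93 against 6.18 for the deposited fold, which moved it from the ninth place in the order to the sixth. The start of COASY, the coenzyme A synthase gene, is within 5 kb of that of MLX in RefSeq.

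**Figure D3:**
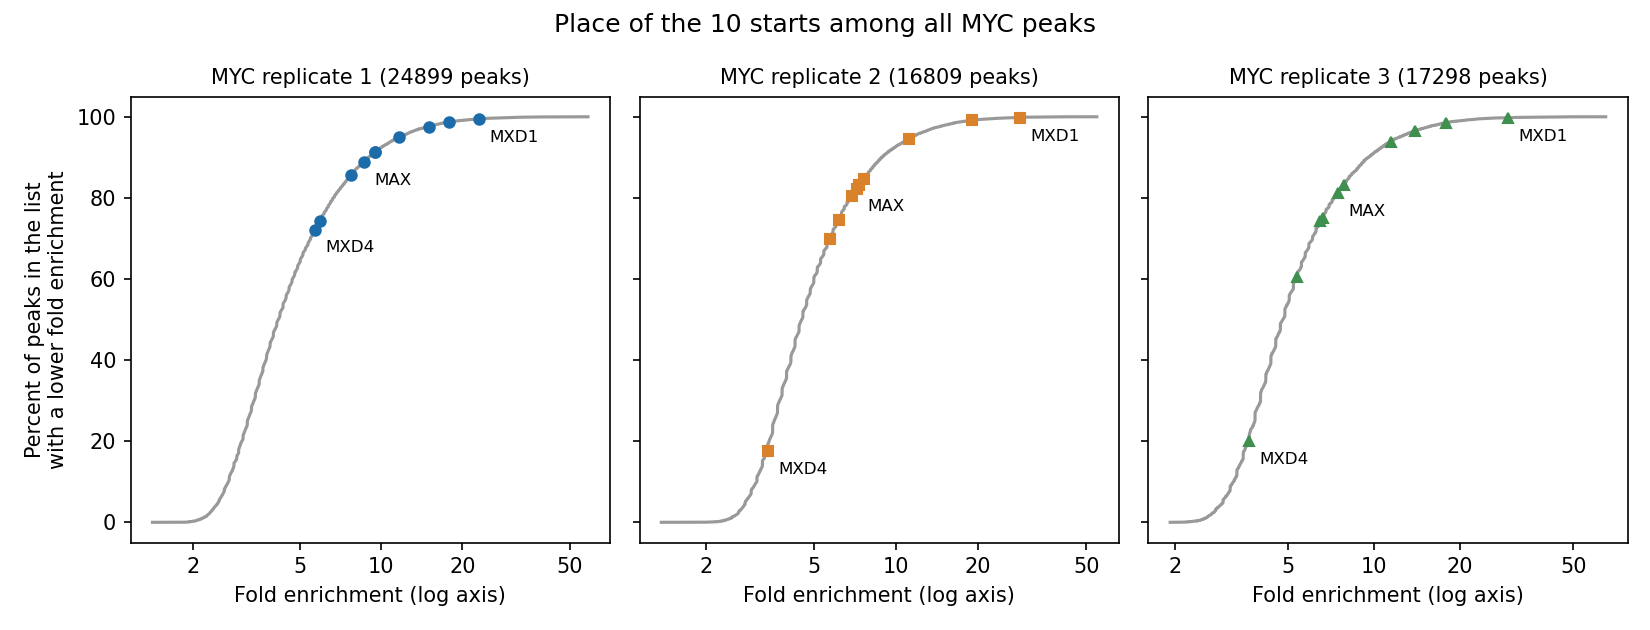
Percent of peaks in each MYC list with a lower fold enrichment (vertical axis) against fold enrichment on a log axis (grey line: all peaks), with the strongest peak of each of the 10 starts as markers and MXD1, MAX and MXD4 named. MXD1 is above at least 99.5% of each list, MAX lies between 81.3% and 88.9%, and MXD4 falls from 72.2% in replicate 1 to 17.6% and 20.1% in replicates 2 and 3.

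By mean fold enrichment the order was MXD1, MXD3, MLXIP, MGA, MNT, MAX, the downstream MXI1 start, the upstream MXI1 start, MLX and MXD4. Of the 9 neighbouring pairs in this order, 6 had overlapping values. The 3 that did not overlap were MXD1 and MXD3, MXD3 and MLXIP, and MLX and MXD4. Of all 45 pairs, 40 had the same order in all 3 replicates and 31 did not overlap. An exact two-sided permutation test of 3 independent values against 3 cannot go below 0.10. The values of any 2 starts come from the same 3 libraries, and a test that respects this has a higher floor. For this reason no pair of starts was tested. Across the 10 starts, Spearman's rho of fold enrichment was 0.888 for replicates 1 and 2, 0.888 for replicates 1 and 3 and 1.000 for replicates 2 and 3. It is given as a description, since the starts of a replicate share a library.

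The replicates did not differ alike at all starts. Replicate 1 gave the highest value at 6 starts, replicate 3 at 3 and replicate 2 at 1. The ratio of replicate 1 to replicate 2 was 1.69 at MXD4, 1.66 at the upstream MXI1 start and 1.59 at MNT. The ratio was 0.813 at MXD1, and its median over 14598 places found in both was 1.13. The 95% Poisson intervals of fragments over background shared a range in the 3 replicates at 9 of the 10 starts, MXD1 being the exception. The intervals cover the counting of fragments at the summit only and treat the background as fixed.

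**Figure D4:**
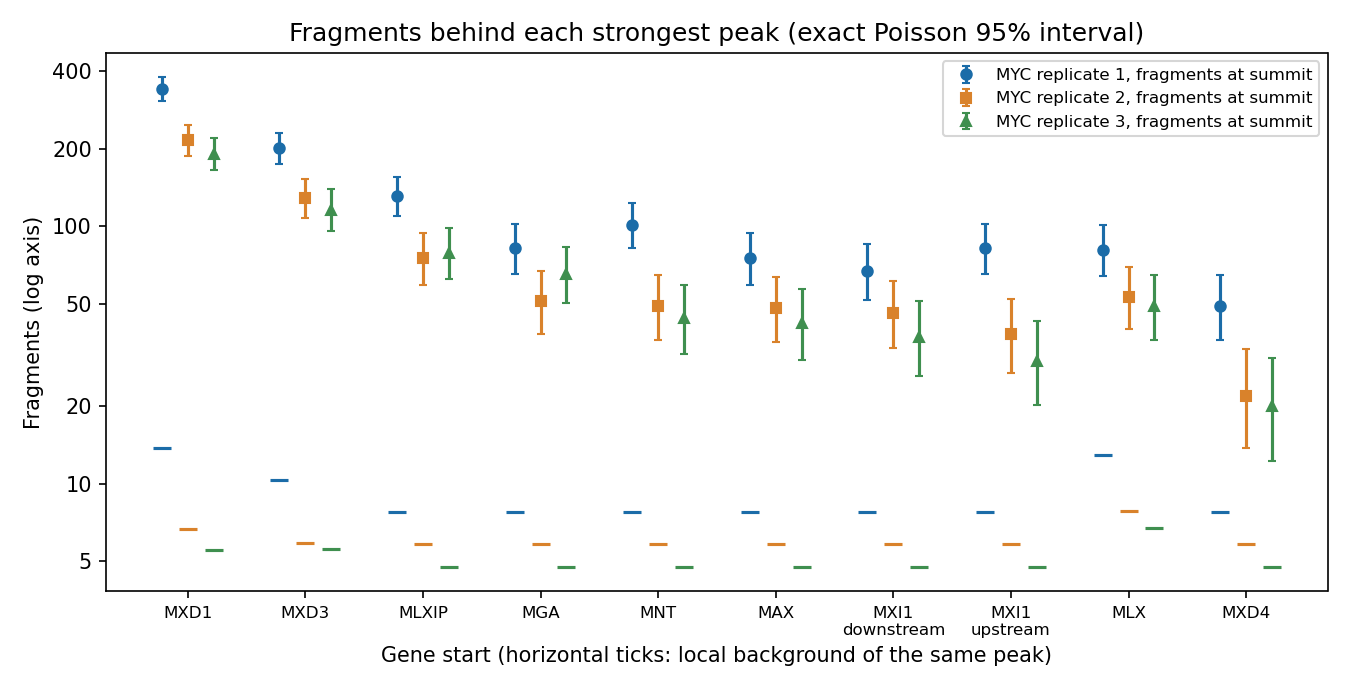
Fragments at the summit of the strongest peak of each start in MYC replicates 1, 2 and 3 on a log axis (points with exact Poisson 95% intervals), with the local background of the same peak as horizontal ticks. Fragments range from 340 at MXD1 in replicate 1 to 20 at MXD4 in replicate 3, and the background is raised at MXD1, MXD3 and MLX.

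Most members shared a low local background and a summit at nearly one position in all libraries. In each replicate 7 of the 10 strongest peaks were at the genome-wide level, against 28.9%, 40.4% and 40.0% of all peaks. The exceptions were MXD1, MXD3 and MLX. The summits of a start spanned a median of 33.5 bp over the replicates and at most 114 bp, at MLX. At all places found in all 3 replicates the median span was 58.0 bp. By mean log fold enrichment, MXD4 was above 20.1% of those places and every other start above at least 62.3%. Places of like strength were not set apart for comparison. The mean summit lay within 500 bp of the start at 7 of the 10 starts, before it at 5 and after it at 5. Of the 30 strongest peaks, 17 covered the start.

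The window edge at 5 kb left out other peaks close by. The farthest summit inside it was the one 3681 bp after the upstream MXI1 start. Just outside were a place 7063, 7050 and 7105 bp after the MNT start, with a fold enrichment of 9.79, 5.99 and 9.73, and one 8531, 8485 and 8500 bp after the MXD3 start, with 8.37, 9.65 and 11.8. RefSeq places the starts of PRELID1 and RAB24 within 10 kb of that of MXD3. MYC, MYCN, MYCL and MLXIPL complete the network, and their hg19 starts were not used here.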

How the data were processed

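ChIP-seq was measured in 3 MYC and 3 normal IgG libraries. Groups and replicate numbers come from the labels. Per the study's methods and the submitters' processing notes, the authors aligned reads to hg19 with Bowtie2 and ran MACS2 separately on every library (q-value 0.05). The sources used here give no versions, control library or duplicate handling. The deposited values of a peak are a fold enrichment (a ratio, 1 being added above and below), its p-value and its q-value as −log10, a score (10 times the −log10 q-value, cut to a whole number) and the summit's offset. The authors did not scale these between lists.

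The 10 hg19 starts were given with the members and were not checked against an hg19 annotation. Their chromosomes matched RefSeq for 9 of 9 genes, and strand came from RefSeq. RefSeq's outermost MXI1 starts lie 18391 bp apart, against 18399 bp here. No coordinate was carried between builds. RefSeq lists 2 starts for MAX, 3 for MGA and 3 for MXI1. Peaks were sought at the given starts only, whereas the motif counts took in all 14 RefSeq windows. The members and lists were chosen with earlier results of these data known. All members are named by rule, and promoters were printed for the strongest and weakest start and for those with CACGTG.

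Fragments and local background at each summit were recovered from fold enrichment and the Poisson p-value. A whole number matched within 0.001 for 100% of peaks in each list. The recovery was tested on simulated data. Places were made by joining peaks that shared 1 bp or more. Python 3.11.15, numpy 2.4.6, pandas 2.3.3 and scipy 1.17.1 were used. Alternatives were q-values of 0.01 and 0.001, equal numbers of peaks (16809), windows of 1, 2 and 10 kb, interval overlap, the nearest peak, a fold with nothing added, and leaving out each replicate. Fragments over the genome-wide background were added after seeing the data.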

Additional observations from a re-analysis of the deposited data

How the results depend on the processing

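Only some of the 13 alternatives could lower the count of 10 starts with a peak in every replicate. The others widened the rule, left out a replicate or changed only the peak or value read. All 10 starts kept a peak in every replicate with q-values of 0.01 and 0.001 and with equal numbers of peaks. With windows of 1 kb and 2 kb, 8 and 9 did, the upstream MXI1 start being lost in both and MNT at 1 kb, where the summit of its single wide peak in replicate 1 lies too far. All 9 genes kept a peak in at least 2 replicates under each alternative that chose peaks anew. The median fold enrichment over starts was 8.34 and became 9.55 with nothing added and 10.1 over the genome-wide background, since the added 1 and a raised local background lower the ratio. The median distance from summit to start was 403 bp and became 353 bp with a window of 1 kb and with the peak nearest to the start. The mean rho between replicates was 0.925 and ranged from 0.888 to 1.000 when a replicate was left out. It fell to 0.820 with the nearest peak, which changed values only at the upstream MXI1 start and MNT. Their means went from 6.84 to 6.21 and from 8.91 to 8.20. CACGTG was in RefSeq windows of 3 genes, CACGTG or CACGCG in those of 6 and any CANNTG in those of 7, by construction of the wider motifs. Of 127 recomputed values of single starts, 12 moved by more than the SD over replicates, all with nothing added or over the genome-wide background. Among these, 1 moved by more than 1.5 times, that of MLX over the genome-wide background. Most of the 127 had little or no room to move. Leaving out a replicate cannot shift a mean of 3 by as much as their SD. The stricter q-values, equal numbers of peaks, interval overlap and narrower windows read the same strongest peak wherever one was kept. The share that moved is therefore no measure of how stable the values are. No paired analysis was possible because no test set the MYC lists against the IgG libraries, which carry the same replicate numbers. Starts were compared within each replicate, as counts of replicates in the same order. Depth limits the weakest peak: MXD4 rests on 20 fragments in replicate 3.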
